A study of Mus musculus with 6 samples.

Results

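The mouse X chromosome carries 5 microRNA (miRNA) hairpins, miR-532, miR-188, miR-362, miR-501 and miR-500, in an intron of Clcn5, the gene of the endosomal chloride-proton exchanger ClC-5. The mature forms described here are 8, mmu-miR-188-5p, mmu-miR-362-3p, mmu-miR-362-5p, mmu-miR-500-3p, mmu-miR-501-3p, mmu-miR-501-5p, mmu-miR-532-3p and mmu-miR-532-5p, out of 685 listed mature miRNAs. They were chosen by name and place, and the measured value used was that they were listed in the tables. Results of these libraries were known when the choice was made, so differences between RSL3 and DMSO in their levels, arm ratios and sums are a description and support nothing further. Small RNA was sequenced from N2a cells, a mouse neuroblastoma line, after differentiation with 10 µM retinoic acid over 96 h. The treated group then received 5 µM RSL3 for 24 h, and the control group received the DMSO solvent, with 3 libraries in each group. RSL3 inhibits the lipid peroxide reductase GPX4 and is used to induce ferroptosis, an iron-dependent cell death. All 6 libraries come from 1 cell line, the labels do not say that replicates were separate cultures, and no measure of cell death was used here.

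A miRNA hairpin is cut from a longer transcript by Drosha and then by Dicer, which leaves a 5p and a 3p strand, named after the arm of the hairpin. Usually 1 strand is kept in an Argonaute protein and pairs with target mRNAs, mainly through its bases 2 to 8, the seed, while the other is degraded. Hairpins of 1 intron can be cut from 1 host transcript. A mature strand's level here is its CPM, reads scaled to the depth of the listed miRNAs, after TMM scaling of the libraries. Mature miRNAs are of nearly equal length, so no length correction was made. Ligation and amplification also differ between sequences, so an order of levels is a description.

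Mature sequences of 7 of the 8 members were matched by name in RefSeq (GRCm38.p6), and miR-532-5p is given by name. They are shown because the strands are grouped by seed in the results, with the seed in capitals, 5′ to 3′.
miR-500-3p: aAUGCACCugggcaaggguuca
miR-501-3p: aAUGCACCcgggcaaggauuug
miR-362-3p: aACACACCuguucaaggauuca
miR-362-5p: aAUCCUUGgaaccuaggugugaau
miR-501-5p: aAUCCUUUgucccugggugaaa
miR-188-5p: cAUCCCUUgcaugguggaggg
miR-532-3p: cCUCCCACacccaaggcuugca

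The strands miR-500-3p and miR-501-3p had the same seed, AUGCACC. Compared base by base from the 5′ end, they were alike at 18 of 22 positions, and the 4 differences, U9C, G18A, C21U and A22G (miR-500-3p first), all lay outside the seed. The strands miR-362-5p and miR-501-5p shared bases 2 to 7, AUCCUU, and differed at the last seed base, G8U (miR-362-5p first). Among the 554 listed names with a sequence, miR-362-3p shared its seed, ACACACC, with 1 other miRNA, miR-329-3p of the imprinted Dlk1-Dio3 region on chromosome 12. The seeds of miR-188-5p, miR-362-5p, miR-501-5p and miR-532-3p occurred in none of the other listed sequences. All 5 strands of miR-362, miR-500 and miR-501 shown began with A, while miR-188-5p and miR-532-3p began with C. Their GC content ran from 40.9% in miR-362-3p to 63.6% in miR-532-3p.

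The 3 hairpins in the later part of the cluster resemble each other, and they are shown with both mature arms in capitals, since the results turn on the balance within and between them.
Mir362, minus strand of chrX:7241982-7242046: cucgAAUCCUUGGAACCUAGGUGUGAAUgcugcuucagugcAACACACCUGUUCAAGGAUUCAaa
Mir501, minus strand of chrX:7241243-7241351: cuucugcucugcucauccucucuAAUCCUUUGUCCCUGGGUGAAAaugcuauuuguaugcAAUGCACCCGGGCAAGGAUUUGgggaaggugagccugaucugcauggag
Mir500, minus strand of chrX:7237683-7237774: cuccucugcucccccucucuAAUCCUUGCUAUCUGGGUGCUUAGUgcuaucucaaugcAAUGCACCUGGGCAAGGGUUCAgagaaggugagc

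The 5p arms of miR-362 and miR-500 also began with the same 8 bases, and the 3p arms of miR-362 and miR-500 were alike at 17 of 22 positions, with 2 of the 5 differences inside the seed. Of the 2 arms of miR-500, the 3p arm is a member, and the 5p arm was not analysed here.

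In the GRCm38 annotation (GENCODE), all 5 hairpins lay on the minus strand, the strand of Clcn5, in a single intron from 7213011 to 7316658 of chromosome X. This intron is 103648 bases long. It was intron 3 or intron 2 of 3 annotated Clcn5 transcripts, and the other 2 of the 5 transcripts did not hold the hairpins in an intron. In the direction of transcription Mir532 (7248402 to 7248497) came first and was followed after 345 bases by Mir188 (7247989 to 7248056). Mir362 lay 5942 bases further on, Mir501 another 630 bases and Mir500 another 3468 bases. The whole cluster spanned 10815 bases.

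**Figure D1:**
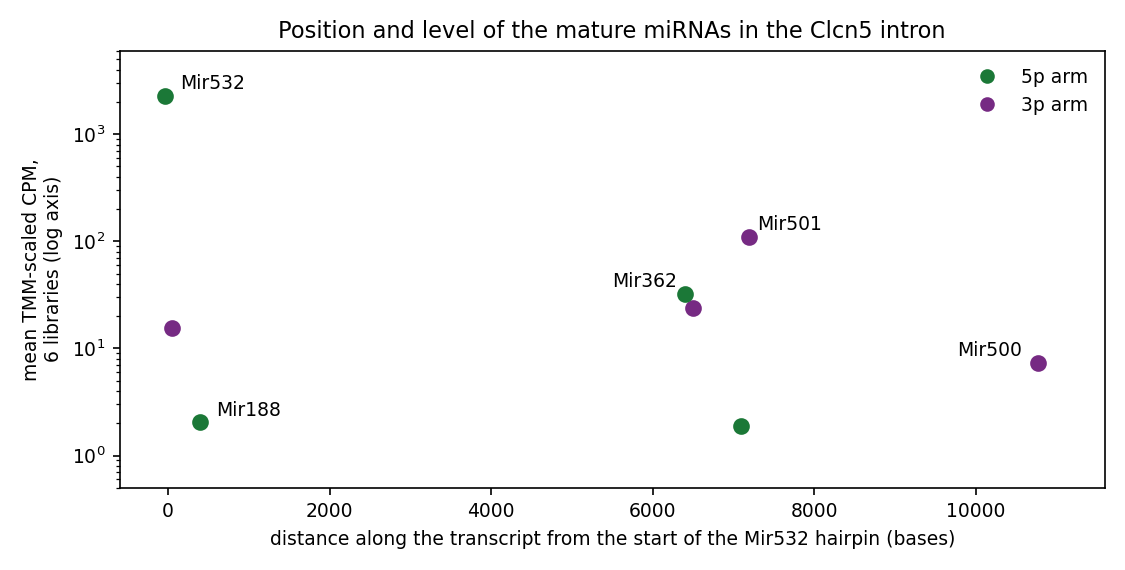
Distance along the transcript from the start of the Mir532 hairpin in bases (x axis) and mean TMM-scaled CPM over 6 libraries on a log axis (y axis), with 1 point per mature miRNA, 5p arms in green and 3p arms in purple, and the arms of a hairpin drawn side by side. The highest point, miR-532-5p at 2281 CPM, belongs to the first hairpin, and its neighbour Mir188 gave 2.04 CPM.

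The cluster's signal was almost all miR-532-5p, a strand reported to repress RUNX3 in human cancer cells. It had 2212, 2214 and 2038 CPM in RSL3 libraries 1 to 3, against 2326, 2231 and 2663 CPM in DMSO libraries 1 to 3. Its share of the signal of all 8 members was 92.0% ± 1.10 in RSL3 and 92.3% ± 1.26 in DMSO libraries (SD, n = 3 each). Next came miR-501-3p, which in rat neurons has been reported to repress the AMPA receptor subunit GluA1, with 117, 94.5 and 96.5 CPM in RSL3 libraries, against 120, 122 and 112 CPM in DMSO libraries. The mean over 6 libraries was 2281 CPM for miR-532-5p and 110 CPM for miR-501-3p, a 20.7-fold distance, and the ranges did not touch.

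Below them the levels ran 32.2 CPM for miR-362-5p, 23.9 CPM for miR-362-3p, 15.7 CPM for miR-532-3p, 7.33 CPM for miR-500-3p, 2.04 CPM for miR-188-5p and 1.90 CPM for miR-501-5p (means of 6 libraries). The highest mean was 1202 times the lowest. Of the 7 pairs of neighbours in this order, 3 had ranges that overlapped. These were miR-362-5p over miR-362-3p, which held in 5 of 6 libraries, miR-362-3p over miR-532-3p, which held in 6 of 6, and miR-188-5p over miR-501-5p, which held in 4 of 6. The order of means was the same in the RSL3 and in the DMSO libraries.

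Depth set the precision of the low members. The listed miRNAs held 3406276 to 4989380 reads per RSL3 library and 4306460 to 6058006 per DMSO library, summed over all listed. In miR-501-5p the recovered reads were 7, 3 and 12 in RSL3 libraries and 14, 13 and 6 in DMSO libraries, and the 3 reads of RSL3 library 2 have an exact 95% Poisson interval of 0.619 to 8.77 reads. For miR-188-5p there were 9, 6 and 9 reads in RSL3 libraries and 20, 8 and 7 in DMSO libraries. A count of 0 would have allowed 3 reads, worth 0.470 to 0.941 CPM. These intervals and limits cover counting error only. The spread between replicates was close to counting error for miR-500-3p, miR-188-5p and miR-501-5p, where the within-group chi-square divided by its degrees of freedom was 0.690, 1.19 and 1.44, and above it for the other 5 members, at 3.43 to 63.7.

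**Figure D2:**
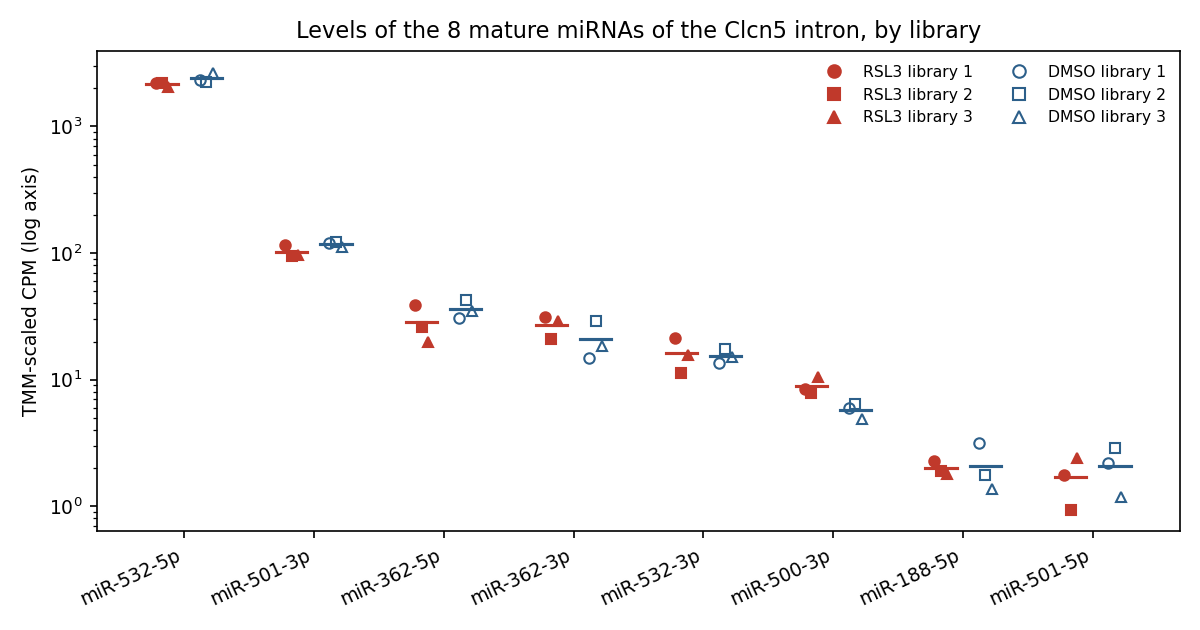
TMM-scaled CPM on a log axis (y axis) of the 8 mature miRNAs (x axis), ordered by mean, with 1 symbol per library, RSL3 filled and DMSO open, and a bar at each group's mean. In miR-500-3p the RSL3 libraries, at 7.85 to 10.4 CPM, lie above the DMSO libraries, at 4.92 to 6.44 CPM.

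The comparison of RSL3 with DMSO asks which miRNAs differ after GPX4 inhibition in these cells. In the fit across the 666 miRNAs tested, which included all 8 members, 0 of the 8 passed at an adjusted p of 0.05 in limma, edgeR or DESeq2, where limma called 0.751% of all miRNAs tested, edgeR 0.901%, and DESeq2 10.5% of those it gave an adjusted p. At an unadjusted p under 0.05 there was 1 member of the 8 (miR-500-3p) in limma, against 17.3% of all miRNAs tested, 1 in edgeR, against 17%, and 0 in DESeq2, against 14.3%. For 3 of the 8, DESeq2's adjusted p was missing. The groups did not overlap in 2 members, 1 with RSL3 higher (miR-500-3p), against 12.3% of all miRNAs tested in that direction, and 1 with RSL3 lower (miR-532-5p), against 12% in that direction. Log2 fold changes were positive for 3 members and negative for 5, with a median of -0.08, against a median of 0.0013 and 50.2% positive over all miRNAs tested. In bulk RNA, fewer cells that make a miRNA and less of it per cell cannot be told apart.

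The first hairpin gave 1 strand whose groups were separate. The strand miR-532-5p averaged 2155 ± 101 CPM in RSL3 and 2407 ± 227 CPM in DMSO libraries (SD, n = 3 each), a log2 fold change of -0.16 with a 95% interval of -0.40 to 0.09. All 3 RSL3 libraries were below all 3 DMSO libraries, but the nearest pair, RSL3 library 2 at 2214 and DMSO library 2 at 2231 CPM, had overlapping 95% Poisson intervals, for counting error only, of 2163 to 2266 and 2188 to 2275 CPM. In CPM without TMM scaling the groups were farther apart, at 2037 to 2217 in RSL3 and 2334 to 2577 in DMSO libraries. In that scaling the median log2 fold change of all miRNAs tested was also lower, at -0.056 against 0.0013 with TMM scaling. Its other arm, miR-532-3p, reported in mouse heart muscle cells to act on the apoptosis repressor ARC, had 21.3, 11.3 and 15.6 CPM in RSL3 libraries, against 13.5, 17.3 and 15.0 CPM in DMSO libraries. The RSL3 libraries held both the highest and the lowest of these values. The log2 fold change was 0.04 (-0.46 to 0.53), negative in CPM without TMM scaling and after scaling without the 5 most abundant miRNAs. The median of all miRNAs tested was -0.056 and -0.050 in these scalings.

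Next to it, miR-188-5p, a repressor of neuropilin-2 in rat hippocampal neurons, had 2.29, 1.88 and 1.80 CPM in RSL3 libraries, against 3.13, 1.78 and 1.38 CPM in DMSO libraries. The DMSO libraries spanned the RSL3 ones, and the log2 fold change of -0.01 had an interval of -0.61 to 0.59.

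In the miR-362 hairpin the arms lay on different sides of 0. The 5p strand, which in human tumour cells has been reported to repress the deubiquitinase CYLD, had 39.1, 26.0 and 19.9 CPM in RSL3 libraries, against 30.9, 42.8 and 34.6 CPM in DMSO libraries. The groups interleaved, since RSL3 library 1 lay above DMSO libraries 1 and 3. Its log2 fold change was -0.38 (-0.87 to 0.11). The 3p strand had 31.0, 21.0 and 28.9 CPM in RSL3 libraries, against 14.9, 29.3 and 18.3 CPM in DMSO libraries, where library 2 was as high as the RSL3 libraries. Its log2 fold change was 0.39 (-0.12 to 0.91).

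The miR-501 strands had fold changes below 0. The abundant miR-501-3p averaged 103 ± 12.3 CPM in RSL3 and 118 ± 5.47 CPM in DMSO libraries (SD, n = 3 each), with a log2 fold change of -0.20 (-0.49 to 0.08). RSL3 library 1, at 117 CPM, lay among the DMSO libraries and the other 2 below them. Its 5p arm had 1.78, 0.941 and 2.41 CPM in RSL3 libraries, against 2.19, 2.89 and 1.18 CPM in DMSO libraries. These interleave, and the log2 fold change was -0.19 (-0.85 to 0.48).

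In the last hairpin the groups were separate. The strand miR-500-3p had 8.39, 7.85 and 10.4 CPM in RSL3 libraries, against 5.96, 6.44 and 4.92 CPM in DMSO libraries, from 33, 25 and 52 reads against 38, 29 and 25 reads. Every RSL3 value was above every DMSO value. The nearest pair, RSL3 library 2 and DMSO library 2, had overlapping 95% Poisson intervals, for counting error only. These were 5.08 to 11.6 CPM and 4.31 to 9.24 CPM. The ratio of means was 1.54, and the log2 fold change was 0.54 (0.07 to 1.01), which did not pass adjustment over all miRNAs. The groups also did not overlap in CPM without TMM scaling or after scaling without the 5 most abundant miRNAs.

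**Figure D3:**
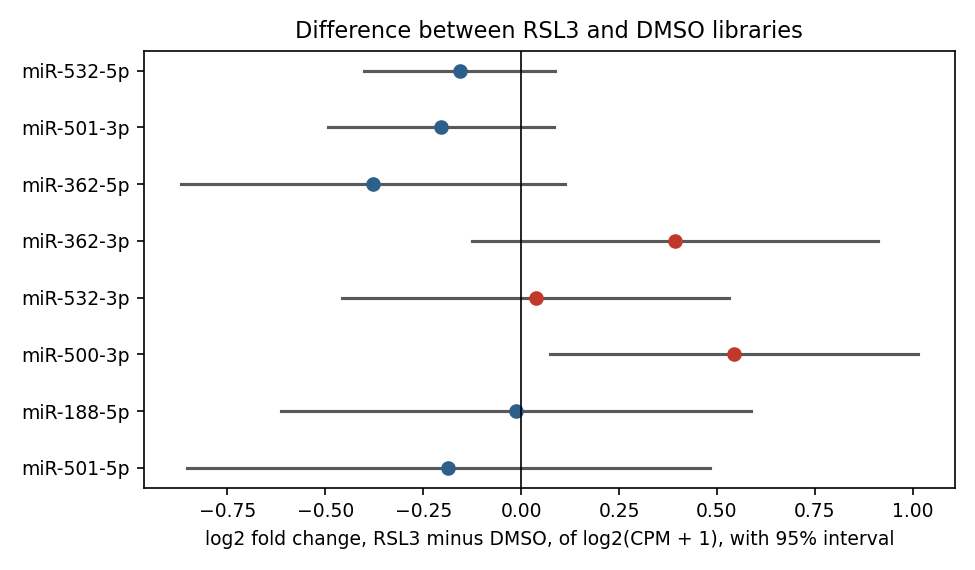
Log2 fold change, RSL3 minus DMSO, of log2(CPM + 1) with its 95% limma interval (x axis) for each of the 8 mature miRNAs (y axis, ordered by level), positive in red and negative in blue. The interval of miR-500-3p, 0.07 to 1.01, leaves 0 outside, and those of the other 7 members include 0.

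Both arms were members for 3 hairpins, whose balance was compared in a fit over 182 precursors. Of these 3, 0 passed at an adjusted p of 0.05 in limma, where 1.65% of all precursors did, and 1 (miR-362) had an unadjusted p under 0.05, against 22.5% of all. In miR-362 the ratio of 5p to 3p signal was 1.26, 1.24 and 0.688 in RSL3 libraries, against 2.07, 1.46 and 1.89 in DMSO libraries. All RSL3 ratios were below all DMSO ratios, toward the 3p arm, and groups separated in that direction in 14.8% of all precursors, or in 9.34% toward the 5p arm, where 0 of the 3 did. In RSL3 library 3 the 3p arm was the higher one. On the log2 scale the mean ratio was 0.03 ± 0.48 in RSL3 and 0.81 ± 0.25 in DMSO libraries (SD, n = 3 each), a difference of -0.77 (95% interval -1.36 to -0.19). Without RSL3 library 3 the difference was -0.50.

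Both miR-362 arms together averaged 55.3 ± 12.9 CPM in RSL3 and 56.9 ± 13.6 CPM in DMSO libraries (SD, n = 3 each), a ratio of 0.971. As a share of reads, the 5p arm made up 55.8%, 55.3% and 40.7% in RSL3 libraries and 67.5%, 59.4% and 65.4% in DMSO libraries. The exact 95% binomial intervals were 49.7% to 61.7%, 47.0% to 63.4% and 34.5% to 47.2% in RSL3 libraries and 61.8% to 72.8%, 53.8% to 64.8% and 59.4% to 71.1% in DMSO libraries. They cover counting error only, and the arms varied between replicates by more than that (chi-square divided by its degrees of freedom 8.86 for the 3p and 10.2 for the 5p arm), so they do not compare the groups.

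The other hairpins kept 1 dominant arm in each library. For miR-532 the 5p arm exceeded the 3p arm 104 to 196 times in RSL3 libraries and 129 to 178 times in DMSO libraries. For miR-501 the 3p arm held 97.6% to 99.0% of the signal in RSL3 libraries and 97.7% to 99.0% in DMSO libraries. The changes in log2 arm ratio were -0.19 (-0.69 to 0.30) for miR-532 and 0.02 (-0.60 to 0.63) for miR-501. The arms of miR-532 and of miR-501 thus leaned to opposite sides of the hairpin.

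Within the pair that shares the seed AUGCACC, the share of miR-500-3p was 6.71%, 7.67% and 9.76% in RSL3 libraries, against 4.73%, 5.02% and 4.22% in DMSO libraries. Every RSL3 share was above every DMSO share. This share needs no library scaling, since both strands are counted in the same library. It uses the same miR-500-3p reads as above and is not a separate result. How often other such pairs separate was not computed. The exact 95% binomial intervals were 4.66% to 9.29%, 5.02% to 11.1% and 7.37% to 12.6% in RSL3 libraries and 3.37% to 6.43%, 3.39% to 7.13% and 2.75% to 6.17% in DMSO libraries. These too cover counting error only, while miR-501-3p varied between replicates by more (chi-square divided by its degrees of freedom 3.51). Summed over the pair, the signal with this seed was 125, 102 and 107 CPM in RSL3 libraries and 126, 128 and 117 CPM in DMSO libraries, and miR-501-3p made up most of it. This ratio and the miR-362 arm ratio are described at length because of their values.

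**Figure D4:**
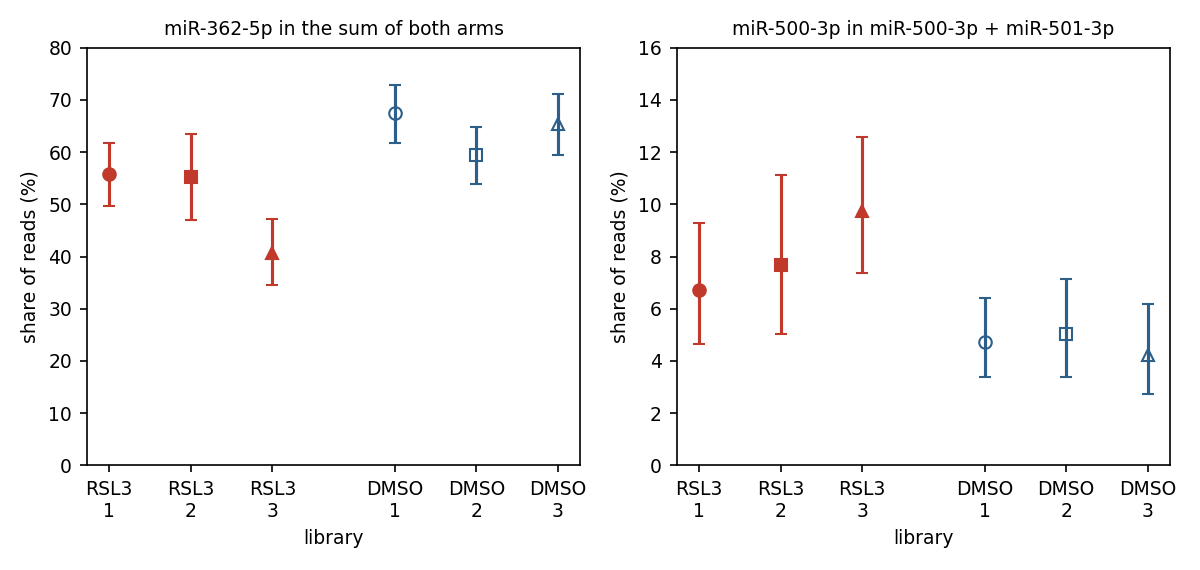
Share of reads in percent (y axes) by library (x axes), with exact 95% binomial intervals, which cover counting error only, as bars, for miR-362-5p in the sum of both miR-362 arms (left) and for miR-500-3p in the sum of miR-500-3p and miR-501-3p (right). The RSL3 libraries sit at 40.7% to 55.8% on the left, below the DMSO libraries at 59.4% to 67.5%, and at 6.71% to 9.76% on the right, above the DMSO libraries at 4.22% to 5.02%.

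Beyond the cluster, miR-329-3p, which shares the seed of miR-362-3p, had 9.66 to 22.0 CPM in RSL3 libraries, against 8.46 to 15.7 CPM in DMSO libraries. These ranges overlap, and its level was below that of miR-362-3p in the mean of both groups.

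Summed over the 8 members, the signal was 2432, 2377 and 2214 CPM in RSL3 libraries, against 2517, 2454 and 2850 CPM in DMSO libraries. The groups did not overlap, and the ratio of means was 0.898. Most of this sum is miR-532-5p, so it is not a separate result from that strand. How often other such sums separate was not computed. Without miR-532-5p the sum was 221, 163 and 175 CPM in RSL3 libraries and 191, 222 and 187 CPM in DMSO libraries, which interleave. The members made up 0.229% ± 0.013 of all listed signal in RSL3 libraries and 0.266% ± 0.0096 in DMSO libraries (SD, n = 3 each). This share is the same sum without TMM scaling, where the median log2 fold change of all miRNAs tested was -0.056.

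Profiles over the libraries were compared by the root mean square distance between log2(CPM + 1) values centred on each miRNA's mean, over 6 libraries, among miRNAs with a mean of at least 10 CPM. Of the members, 5 reach that mean, and for none of the 8 was one of these 5 the nearest miRNA. With so few members among 416 or 417 candidates, a nearest miRNA outside the cluster is likely in any case. These places therefore cannot show whether the members vary together, which was not tested. The nearest member ranked between place 21, for miR-362-3p with miR-532-3p, and place 112, for miR-500-3p with miR-362-3p, of 416 or 417 candidates. The best counted strands, miR-532-5p and miR-501-3p, were 0.15 apart on the log2 scale, at places 93 and 72 of each other's lists. Nearest to miR-532-5p was miR-361-3p, a miRNA of another X chromosome intron, that of Chm, at a distance of 0.030. It averaged 1164 ± 25.4 CPM in RSL3 and 1322 ± 108 CPM in DMSO libraries (SD, n = 3 each). The other arm of that hairpin, miR-361-5p, averaged 68.7 ± 7.41 CPM in RSL3 and 72.4 ± 4.52 CPM in DMSO libraries, with overlapping groups.

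Each of the other 7 members also had its nearest miRNA outside the cluster. These were miR-181d-5p for miR-501-3p (distance 0.056), miR-3535 for miR-500-3p (0.072), miR-107-3p for miR-532-3p (0.11), miR-3099-3p for miR-188-5p (0.12), miR-181c-3p for miR-362-3p (0.12), miR-378a-5p for miR-362-5p (0.19) and miR-20a-5p for miR-501-5p (0.20). The 5 miRNAs nearest to the mean profile of the 8 members were miR-27b-3p, miR-296-5p, miR-203-3p, miR-298-5p and miR-5113, at distances of 0.055 to 0.088. The median over all 412 candidates was 0.25. The nearest 5 were picked as the smallest of these distances, so the gap to the median does not measure likeness.

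Other miRNAs from introns of protein-coding genes on the X chromosome were taken from a list of 10 names, of which 13 mature forms were listed and 12 tested, leaving out let-7f-1-3p, whose hairpin lies on chromosome 13. The form let-7f-5p was kept, and its reads can come from both let-7f hairpins, on chromosomes 13 and X. Both arms of a hairpin were counted where listed, so the 12 are not separate hairpins. In limma 0 of the 12 passed, with 0 higher and 2 lower at an unadjusted p under 0.05, against 17.3% of all miRNAs tested in either direction and 8.41% with RSL3 lower. Their log2 fold changes were negative for 9 and positive for 3, with a median of -0.13, beside 0.0013 for all miRNAs tested. These 2, which did not pass adjustment, were miR-652-3p, from an intron of Tmem164, at 438 ± 19.1 CPM in RSL3 and 522 ± 30.7 CPM in DMSO libraries, and miR-98-5p of the let-7 family, from an intron of Huwe1, at 92.7 ± 7.26 CPM in RSL3 and 126 ± 14.1 CPM in DMSO libraries (SD, n = 3 each). In the non-coding X chromosome gene Ftx, which gives miR-374b and miR-421, 2 mature forms were tested and 0 passed in limma. The log2 fold changes were -0.59 for miR-374b-5p and -0.02 for miR-421-3p. Of the 2, miR-374b-5p was lower at an unadjusted p under 0.05 (limma p 0.0050, adjusted p 0.095), with overlapping groups.

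All 5 neuronal miRNAs of a short marker list were present. Among them, miR-9-5p was at 4259 ± 962 CPM in RSL3 and 3240 ± 723 CPM in DMSO libraries (SD, n = 3 each). For miR-124-3p the means were 179 ± 36.9 CPM in RSL3 and 148 ± 15.2 CPM in DMSO libraries (SD, n = 3 each). For miR-128-3p the means were 2019 ± 321 CPM in RSL3 and 2156 ± 261 CPM in DMSO libraries (SD, n = 3 each). Of the 5 log2 fold changes 3 were positive and 2 negative, and 0 passed in limma. Summed neuronal markers ran from 5605 to 8181 CPM in RSL3 and from 4975 to 6814 CPM in DMSO libraries. Markers of other cell types were not at 0 either, so presence alone cannot check the labelled cell type. Summed levels were 127 to 192 CPM in RSL3 and 114 to 150 CPM in DMSO libraries for blood (3 of 5 miRNAs listed), 1272 to 1338 CPM in RSL3 and 1121 to 1343 CPM in DMSO libraries for endothelium and fibroblast (3 of 3 listed), and 68.8 to 129 CPM in RSL3 and 105 to 193 CPM in DMSO libraries for muscle (3 of 3 listed). For endothelium and fibroblast the log2 fold changes were 0.38 for miR-126a-3p, -0.34 for miR-199a-3p and -0.24 for miR-214-3p. For the glia list (3 of 3 listed) the summed levels were 965 to 1149 CPM in RSL3 and 794 to 888 CPM in DMSO libraries. Most of that was miR-23a-3p, with a log2 fold change of 0.38, beside 0.045 for miR-219a-2-3p and -0.057 for miR-338-3p. The groups did not overlap for miR-23a-3p, with RSL3 higher, against 12.3% of all miRNAs tested in that direction. They overlapped for miR-219a-2-3p and miR-338-3p, so the sum does not show a rise of the list as a whole. In either list 0 of the 3 passed in limma, against 0.751% of all miRNAs tested. The liver miRNA miR-122-5p was at 4.48 ± 1.85 CPM in RSL3 and 2.24 ± 1.14 CPM in DMSO libraries (SD, n = 3 each). Their part in the values of the cluster was not tested.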

How the data were processed

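Small RNA libraries, 3 RSL3 and 3 DMSO, of differentiated N2a cells were analysed. Per the submitters' processing notes, cutadapt, Bowtie and edgeR were used with GRCm38 (step order, versions, settings: not given in the sources used here). In the deposited signal, which the authors named CPM, 100% of values were whole multiples of 1 step per library within 0.01. Dividing by that step recovered reads, and CPM of those reads with TMM factors of 0.936 to 1.05 returned the deposited values, so these values cannot show a difference in the total amount of miRNA in a cell. The design had assumed such scaled values.

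In R 4.3.3, limma 3.58.1 (eBayes with trend, two-sided) was fitted to log2(CPM + 1) of 666 miRNAs with 1 CPM in at least 3 libraries, setting aside 19 of 685, with Benjamini-Hochberg adjustment at 0.05. Fold changes on this scale understate those of low miRNAs. Arm ratios were log2((5p + 1)/(3p + 1)). As alternatives on recovered reads, edgeR 4.0.16 (quasi-likelihood) called 4 miRNAs higher and 2 lower in RSL3, and DESeq2 1.42.0 called 19 higher and 21 lower. Scripts were tested on simulated data. The labels do not name separate cultures, so p-values measure the spread between these libraries, which may be technical. Sequences came from RefSeq (GRCm38.p6) and introns from GENCODE M21. Members and lists were chosen with earlier results of these data known. The named miRNAs were the members, those sharing a seed, the nearest profiles and the X chromosome and marker lists.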

Additional observations from a re-analysis of the deposited data

How the results depend on the processing

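The counts of members called (0 of 8 under 15 alternatives) and of cluster precursors with a changed arm ratio (0 of 3 under 11) were the same under every alternative run, although the 10 CPM filter left fewer members to test. Tried were a pseudocount of 0.5 or 5, a filter at 10 CPM or none, 2 other scalings, edgeR, DESeq2, the replicate block, and leaving out each library, with the arm ratio run without the scalings and read-count tests. The ratio of summed signal, 0.898, ran from 0.862 to 0.942, and 6 to 8 of the 8 members kept their place in the order of levels. The replicate block, the replicate number as a term, gave 0 calls and a summed ratio of 0.899. Same-numbered libraries did not deviate together from their group means (Pearson's r across miRNAs -0.35, -0.33 and -0.19). Libraries of different numbers gave r of 0.041 to 0.30. Deviations within a group of 3 cancel out, so these values cannot show whether the libraries were handled in pairs.

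Over all alternatives the log2 fold change ran from 0.36 to 0.64 for miR-500-3p, from -0.22 to -0.08 for miR-532-5p, from -0.63 to -0.16 for miR-362-5p and from 0.19 to 0.66 for miR-362-3p, and the arm ratio change of miR-362 from -0.92 to -0.50. Signs turned in values near 0. For miR-532-3p the log2 fold change, 0.04, was -0.020 in CPM without TMM scaling and -0.012 after scaling without the 5 most abundant miRNAs, and the arm ratio change of miR-501, 0.02, was -0.022 with a pseudocount of 0.5. When a library was left out, the range was -0.18 to 0.22 for miR-188-5p, -0.42 to 0.035 for miR-501-5p, -0.18 to 0.25 for miR-532-3p, -0.21 to 0.18 for the arm ratio of miR-501 and -0.43 to 0.0013 for that of miR-532. The cause was not tested. Depth limits miR-188-5p and miR-501-5p, with 3 to 20 reads per library.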
